A study of Homo sapiens with 2 samples.

Results

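The nuclear genes for the proteins of the mitochondrial ribosome were examined for lysine lactylation at their ends in CAL27 cells. CAL27 is an established cell line from a human squamous cell carcinoma of the mouth. The genes were the protein-coding ones of the RefSeq table for GRCh38.p14 whose symbol is MRPL or MRPS followed by a number, and there were 77 of them among 20037 protein-coding genes. Of these, 49 carry an MRPL symbol, for the large subunit, and 28 an MRPS symbol, for the small subunit. A gene was called marked in a library when a peak region reached 1 kb to either side of a gene end. A region is 1 distinct start and end in the peak list, and it may hold several summits. The genes were selected on their symbols with their marks in both libraries, the peaks' fold enrichment and the sharing of regions with neighbouring genes already known, so the counts below describe them and test nothing.

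There were 2 CUT&Tag libraries, both from CAL27 with no genetic change named in the labels: 1 from cells given 10 mM lactate for 24 hours, and 1 from cells with no treatment. In CUT&Tag an antibody brings a Tn5 transposase fused to protein A to its target, where it cuts and tags the DNA. The antibody was against lactyllysine in any protein, so the modified protein at a site, histone or other, is not identified. With 1 library per group there is no replicate check of any difference, and no p-value is given. In a bulk library, more cells with the mark at a site and more of the mark per cell cannot be told apart.

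The headers of the peak lists conflict with the sample labels. Each list carries the other sample's name in its run name, in its input file and in every peak name, for 58929 peaks of the lactate-labelled library and 49750 of the untreated one. Only the header's name line carries the label's name. The samples were kept as labelled, and every direction given between the libraries would turn if the lists were exchanged.

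Mitochondria translate the few proteins that their own DNA encodes, all of them parts of the respiratory chain and ATP synthase, on a ribosome of their own. Its RNA comes from mitochondrial DNA, whereas all of its proteins are encoded in the nucleus, made in the cytosol and imported. The large subunit joins amino acids at the peptidyl transferase centre, and the small subunit holds the messenger RNA and reads its codons. Lactyllysine carries a lactyl group derived from lactate, and on histones it is known chiefly from the promoters of active genes.

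Most of the 77 genes were marked in both libraries. In the library labelled lactate 61 of 77 were marked (79.2%, exact Clopper-Pearson 95% interval 68.5 to 87.6, counting error only), against 49.5% of all protein-coding genes. In the library labelled untreated 54 of 77 were marked (70.1%, interval 58.6 to 80.0), against 43.5% of all protein-coding genes. All 54 genes marked in the untreated library were also marked in the lactate library, and across all protein-coding genes 39.8% were marked in both. A further 7 were marked in the lactate library alone, which is 9.09% of the 77 beside 9.70% of all protein-coding genes. None was marked in the untreated library alone, where 3.74% of all protein-coding genes were, and 16 were marked in neither, 20.8% beside 46.8%. With this definition of a mark, the share marked in the lactate library alone was thus close to the share among all genes.

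The strength of a peak is given as the authors' fold enrichment, which is the tag pileup at the summit over the local background, with 1 added to both. For each gene the region of highest fold was used. Among marked members the fold ran from 3.61 to 10.1 with a median of 5.56 in the lactate library, and from 3.25 to 8.89 with a median of 5.69 in the untreated library. Among all marked protein-coding genes the medians were 5.49 in the lactate library and 5.14 in the untreated library. The members' medians lay close above those of all marked genes in both libraries. A fold of at least 5 was reached by 44 of 77 members (57.1%) in the lactate library, where 30.3% of all protein-coding genes reached it, and by 34 of 77 (44.2%) in the untreated library, where 23.3% did. The pileup at the members' summits ran from 8 to 64 tags, median 18, in the lactate library and from 7 to 58 tags, median 18, in the untreated library. These are small counts, and the exact Poisson 95% intervals given with single pileups below cover counting error only.

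Other definitions of a mark left the members above the level of all protein-coding genes. With the window widened to 5 kb, 66 of 77 were marked in the lactate library (64.9% of all genes) and 61 in the untreated library (58.7%), and with 500 bp it was 59 in the lactate library (45.0%) and 53 in the untreated library (39.4%). With the summit itself required inside the window, 60 were marked in the lactate library (48.1%) and 53 in the untreated library (42.3%). The lists used hold no p-value, and one recomputed from pileup and background gave 56 members at a -log10 p of at least 7 in the lactate library (39.9%) and 41 in the untreated library (32.5%). The count marked in 1 library alone was less steady. At a fold of at least 5, 17 of 77 members were marked in the lactate library alone, beside 10.6% of all protein-coding genes. In the untreated library alone it was 7 of 77, beside 3.59%. At a -log10 p of at least 7 it was 18 of 77 in the lactate library alone, beside 11.1%. In the untreated library alone it was then 3 of 77, beside 3.68%. At these limits the members' share in the lactate library alone was thus above that of all genes, and the difference was not tested.

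**Figure D1:**
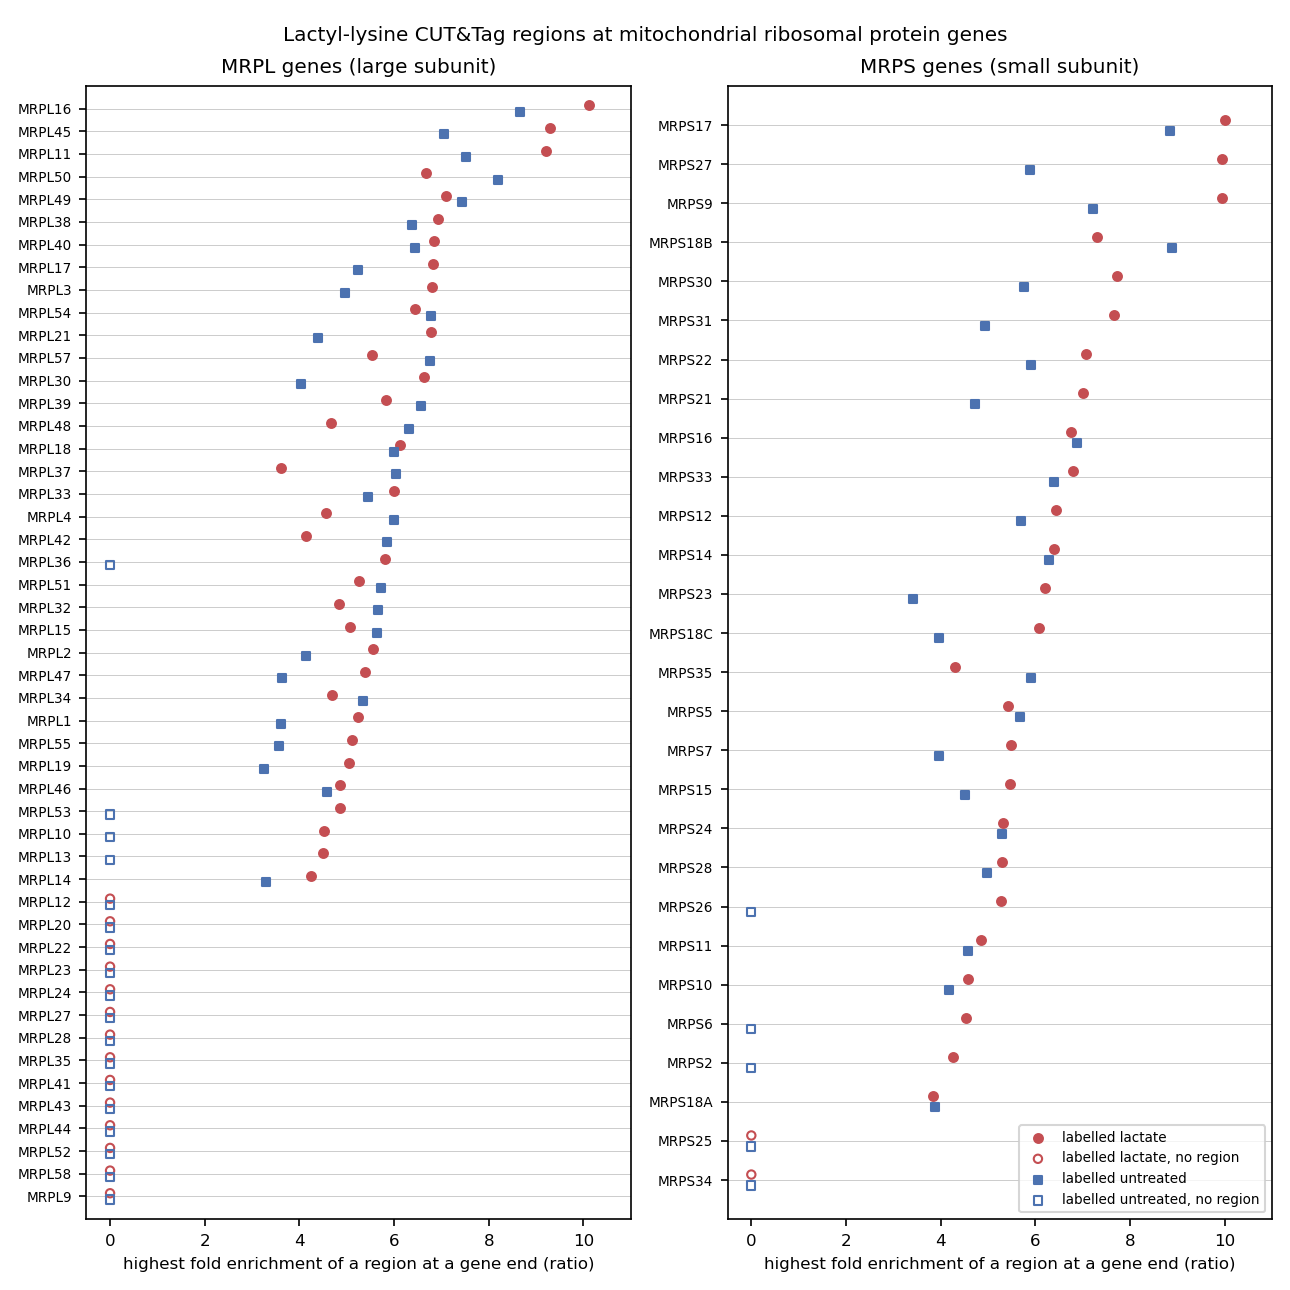
Highest fold enrichment (ratio, horizontal axis) of a region at an end of each of 49 MRPL genes (left) and 28 MRPS genes (right), with circles for the lactate-labelled and squares for the untreated-labelled library. Open symbols at 0 stand for genes with no region, which are 14 MRPL and 2 MRPS genes in both libraries, and MRPL16 and MRPS17 have the highest fold of their panels in the lactate library.

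Genes of the large subunit were marked less often than genes of the small subunit. In the lactate library 35 of 49 MRPL genes (71.4%, interval 56.7 to 83.4) and 26 of 28 MRPS genes (92.9%, interval 76.5 to 99.1) were marked, a difference of -21.4 percentage points, large minus small. In the untreated library 31 of 49 MRPL genes (63.3%, interval 48.3 to 76.6) and 23 of 28 MRPS genes (82.1%, interval 63.1 to 93.9) were marked, a difference of -18.9 points. Of the 16 members marked in neither library, 14 were MRPL genes and 2 were MRPS genes. The intervals of the subunits overlap in each library, the genes were chosen with these counts known, and the difference was not tested. With fold enrichment of at least 5 as the limit, the difference was -22.4 points in the lactate library and -3.57 points in the untreated library. Other limits on strength gave other sizes, -20.4 points in the lactate library and -11.7 points in the untreated library at a -log10 p of at least 7, and -28.6 points in the lactate library and -12.2 points in the untreated library in lists of 21840 regions each. With a window of 5 kb around the gene ends it was -11.2 points in the lactate library and -10.2 points in the untreated library. With the gene start alone it was -16.4 points in the lactate library and -11.4 points in the untreated library, over the members whose start was known. The products of MRPS18A and MRPS30 sit in the large subunit in spite of their symbols. Counting both with the large subunit, a choice made after the data were seen, gave -19.8 points in the lactate library and -16.1 points in the untreated library.

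Among marked genes the subunits' peaks were of similar height. The median fold of MRPL genes was 5.53 and that of MRPS genes 6.14 in the lactate library, and in the untreated library it was 5.72 for MRPL genes and 5.68 for MRPS genes. The MRPS genes were thus higher in the lactate library, and the subunits were nearly level in the untreated library.

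**Figure D2:**
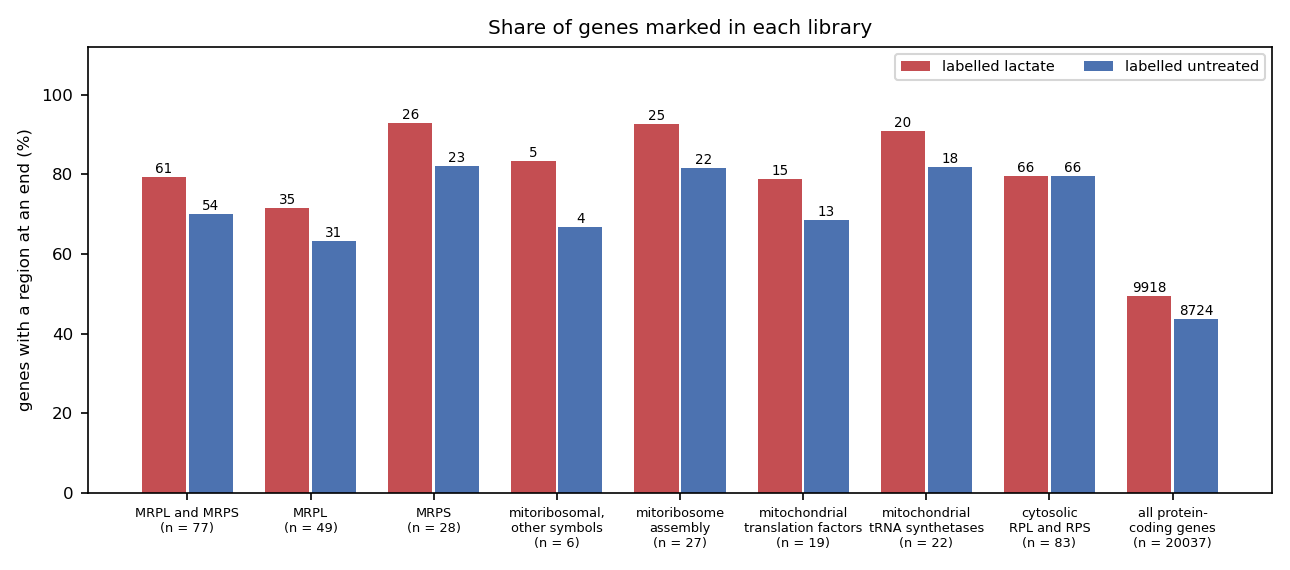
Share of genes with a region at an end (%, vertical axis) in the lactate-labelled and the untreated-labelled library, for the MRPL and MRPS genes, 5 other sets of ribosome and mitochondrial translation genes described below, and all 20037 protein-coding genes. The numbers on the bars are counts of marked genes, and the bars of all protein-coding genes, 49.5% in the lactate library and 43.5% in the untreated library, are the lowest.

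The strongest peaks lay at genes of both subunits. MRPL16, whose product lies close to the peptidyl transferase centre in the large subunit, had the highest fold in the lactate library. Its region, chr11:59810559-59810963 (hg38), had a pileup of 31 tags (95% interval 21.1 to 44.0) and a fold of 10.1 in the lactate library, and its region at chr11:59810240-59811003 had 21 tags (13.0 to 32.1) and a fold of 8.66 in the untreated library. MRPS17, a protein that binds the small subunit's ribosomal RNA, had 55 tags (41.4 to 71.6) and a fold of 10.0 at chr7:55951504-55952074 in the lactate library, against 43 tags (31.1 to 57.9) and 8.84 at chr7:55951736-55952026 in the untreated library. Both genes were thus near the top of each list, at the 97.8th percentile of marked protein-coding genes for MRPL16 and the 97.4th for MRPS17 in the lactate library, and at the 95.3rd for MRPL16 and the 96.0th for MRPS17 in the untreated library. MRPS27 encodes a pentatricopeptide repeat protein, of a family that binds RNA. It had 37 tags (26.1 to 51.0) and a fold of 9.95 at chr5:72320174-72320820 in the lactate library, against 19 tags (11.4 to 29.7) and 5.88 at chr5:72320169-72320660 in the untreated library. MRPS9, in the head of the small subunit, had 30 tags (20.2 to 42.8) and a fold of 9.94 at chr2:105037814-105038171 in the lactate library, against 23 tags (14.6 to 34.5) and 7.23 at chr2:105037792-105038571 in the untreated library. For these genes both regions held the start of the gene or its flank, and the intervals of the libraries overlapped.

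MRPL45 helps to hold the ribosome at the inner membrane, where its products are inserted. It had 33 tags and a fold of 9.29 in the lactate library, against 24 tags and 7.06 in the untreated library. MRPL11 belongs to the base of the stalk where translation factors dock, and its peak was the tallest among the members in the lactate library. It had 64 tags (49.3 to 81.7) and a fold of 9.21 at chr11:66438550-66439227 in the lactate library, against 50 tags (37.1 to 65.9) and 7.52 at chr11:66438500-66439252 in the untreated library. MRPL49 was next in the lactate library and tallest in the untreated library, with 62 tags (47.5 to 79.5) and a fold of 7.09 in the lactate library, against 58 tags (44.0 to 75.0) and 7.43 in the untreated library. MRPL49, MRPS18B and MRPL50 were among the 6 members of highest fold in the untreated library and not in the lactate library. MRPS18B, a relative of MRPS18A and MRPS18C, had 31 tags and a fold of 7.31 in the lactate library, against 36 tags and 8.89 in the untreated library. MRPL50 had 26 tags and a fold of 6.68 in the lactate library, against 29 tags and 8.20 in the untreated library. The intervals overlapped here too.

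The 4 members of lowest fold in each library had fewer tags than the members' median of 18, although MRPL14 with 17 in the lactate library was close to it. MRPL37 had the lowest fold in the lactate library, 3.61 with 12 tags, against 6.05 with 18 tags in the untreated library. MRPS18A had a fold of 3.85 with 9 tags in the lactate library and 3.87 with 10 tags in the untreated library. MRPL42 had a fold of 4.14 with 10 tags in the lactate library and 5.86 with 12 tags in the untreated library. Being weak in 1 library did not mean being weak in the other. MRPL19 had the lowest fold in the untreated library, 5.05 with 9 tags in the lactate library against 3.25 with 7 tags in the untreated library. MRPS23 had a fold of 6.21 with 19 tags in the lactate library against 3.42 with 10 tags in the untreated library, and MRPL55 a fold of 5.10 with 19 tags against 3.57 with 13 tags in the untreated library. MRPL14 was low in both, with a fold of 4.25 and 17 tags in the lactate library and 3.29 and 14 tags in the untreated library. MRPL14 was also the member whose untreated summit lay farthest from the gene start, as described below.

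The members without a mark by their gene ends were mostly MRPL genes. The 14 MRPL genes marked in neither library were MRPL9, MRPL12, MRPL20, MRPL22, MRPL23, MRPL24, MRPL27, MRPL28, MRPL35, MRPL41, MRPL43, MRPL44, MRPL52 and MRPL58, and the 2 MRPS genes were MRPS25 and MRPS34. MRPL12 forms the stalk that recruits translation factors. MRPL22, MRPL23 and MRPL24 line the tunnel through which the new chain leaves, and MRPL58 is a peptidyl-tRNA hydrolase built into the large subunit. Of these, MRPL24 had a region at its start in both libraries, as described below. MRPL16 near the peptidyl transferase centre and MRPL11 at the base of the stalk were marked in both libraries. From the ends of the 16 genes the nearest region lay 1218 to 30863 bp away, median 9856 bp, in the lactate library and 1350 to 80259 bp away, median 10504 bp, in the untreated library. It lay within 5000 bp for 5 genes in the lactate library and for 4 genes in the untreated library. For most of the 16, no region lay near.

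Some of these calls turned on where the gene was taken to begin. RefSeq gene ends come from the longest extent of all transcripts, and the promoter table gave a start for 69 of the 77 members. MRPL24 and MRPL44, marked in neither library by their gene ends, both had a region at that start in both libraries. For MRPL24 the region at chr1:156740929-156741498 had 25 tags and a fold of 5.53 in the lactate library, and that at chr1:156740929-156741366 had 16 tags and 4.05 in the untreated library. Both also reached the end window of HDGF, a growth factor gene next to it. For MRPL44, whose product resembles ribonuclease III, the region at chr2:223957190-223957468 had 19 tags and a fold of 7.87 in the lactate library, and that at chr2:223957243-223957577 had 12 tags and 5.28 in the untreated library. Both lay far inside the gene's RefSeq extent, 6336 bp from a gene end in the lactate library and 6389 bp in the untreated library. By the gene start alone, 54 of 69 members were marked in both libraries, beside 40.3% of 15843 genes with a known start. With this rule 3, namely MRPL53, MRPS6 and MRPS26, were marked in the lactate library alone (9.13% of all such genes), 0 in the untreated library alone (3.28%) and 12 in neither (47.3%), of which 10 were MRPL genes and 2 MRPS genes.

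At the members the peaks sat on the gene start. All 55 members with a known start that were marked in the lactate library, and all 50 in the untreated library, had a region within 1 kb of it, beside 91.3% of all marked protein-coding genes in the lactate library and 90.6% in the untreated library. The summit of the strongest region lay within 250 bp of the start for 50 of 55 members (90.9%) in the lactate library and 45 of 50 (90.0%) in the untreated library. Among all marked genes with a known start this held for 58.7% in the lactate library and 58.6% in the untreated library. The median summit lay upstream of the start, at -55 bp in the lactate library and at -49.5 bp in the untreated library. MRPL14 in the untreated library was the 1 summit beyond 500 bp, at -1327 bp, against -235 bp in the lactate library. The window of 1 kb around both ends would have admitted marks at the far end of a gene, and no member with a known start was marked there alone.

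**Figure D3:**
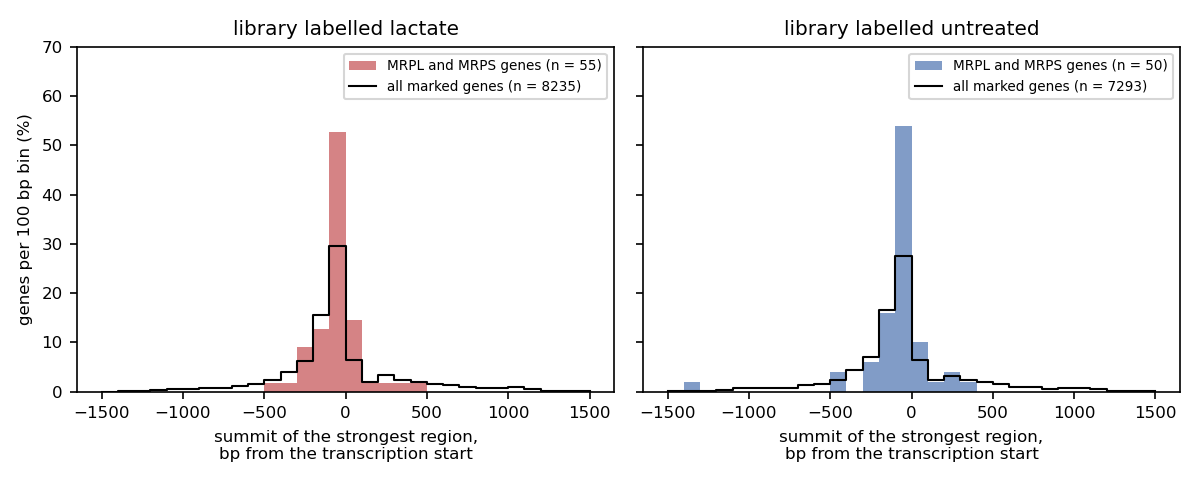
Distance from the gene start to the summit of the strongest region (bp, negative is upstream) for marked MRPL and MRPS genes with a known start (bars) and for all marked protein-coding genes with a known start (line), as a percentage of genes per 100 bp bin. The bin just upstream of the start is the tallest in both libraries, and 1 gene of the untreated library, MRPL14, lies at -1327 bp.

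The peaks were short and mostly at the same place in both libraries. The member regions numbered 73 in the lactate library and 59 in the untreated library, and the strongest region per member had a median length of 437 bp in the lactate library and 370 bp in the untreated library. The longest was that of MRPL18, at 1257 bp in the lactate library and 1176 bp in the untreated library. Of these regions, 56 in the lactate library (76.7%, beside 70.6% of all regions at gene ends) and 55 in the untreated library (93.2%, beside 85.4%) overlapped a region of the other library. In 49 of the 54 members marked in both, the strongest regions of the libraries overlapped each other (90.7%, beside 90.2% of all genes marked in both). The exceptions were MRPL2, MRPL14, MRPL21, MRPL46 and MRPS11. At MRPL46 and MRPS11, which share their regions, the region of the lactate library ended just before that of the untreated library began.

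Members often shared their mark with a neighbouring gene. In the lactate library 30 of 61 marked members (49.2%) had a region that also reached the end window of another protein-coding gene, beside 32.6% of all marked genes. In the untreated library it was 22 of 54 (40.7%), beside 32.2%. These were 19 MRPL and 11 MRPS genes in the lactate library, and 14 MRPL and 8 MRPS genes in the untreated library. Such a mark cannot be assigned to 1 gene of the pair. At 17 of the 30 members in the lactate library and 16 of the 22 in the untreated library, the neighbour started within 1 kb and was transcribed the other way, an arrangement called head-to-head. It was called only where the starts of both genes were known, so it could not be judged at the other pairs that lack a start. In all, 18 of 69 members with a known start (26.1%) had a called head-to-head protein-coding partner, beside 10.3% of all genes with a known start. Of the 18, 17 were marked in the lactate library and 16 in the untreated library. Of the 51 members with a known start and no called partner, 38 (74.5%) were marked in the lactate library and 34 (66.7%) in the untreated library. Among all protein-coding genes 81.7% with a partner and 48.6% without were marked in the lactate library, and 72.9% with and 43.0% without in the untreated library.

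The subunits come together at 1 of these pairs. MRPL46 and MRPS11 lie head-to-head on chromosome 15 with 320 bp between their starts, and 1 region marked both in each library. It had 13 tags and a fold of 4.86 at chr15:88467349-88467757 in the lactate library, against 11 tags and 4.58 at chr15:88467765-88467979 in the untreated library. Other partners also take part in making, folding or degrading proteins. MRPL49 starts 49 bp from FAU, which encodes a cytosolic ribosomal protein joined to a ubiquitin-like protein. MRPS12, a protein of the decoding centre, starts 181 bp from SARS2, the mitochondrial seryl-tRNA synthetase, and their region had 25 tags and a fold of 6.44 in the lactate library against 20 tags and 5.71 in the untreated library. MRPS27 starts 133 bp from PTCD2, another pentatricopeptide repeat gene. MRPL18 starts 210 bp from TCP1, a subunit of the cytosolic chaperonin that folds actin and tubulin, and MRPL32 202 bp from PSMA2, a subunit of the proteasome. These 5 pairs were marked in both libraries.

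Further partners belong to other processes. MRPL50 shared its region with ZNF189 and MRPS18B with PPP1R10, which encodes a regulatory subunit of protein phosphatase 1. MRPL40 starts 812 bp from HIRA, a histone chaperone, and their region had 26 tags and a fold of 6.85 in the lactate library against 25 tags and 6.44 in the untreated library. MRPL54 starts 990 bp from APBA3, and their region had 27 tags and a fold of 6.45 in the lactate library against 29 tags and 6.79 in the untreated library. MRPL51 shared with NCAPD2, a condensin subunit, MRPL57 with SKA3, a kinetochore protein, and MRPS18C with HELQ, a DNA helicase. MRPS16 shared a region with CFAP70, with 28 tags and a fold of 6.74 in the lactate library against 22 tags and 6.89 in the untreated library, and MRPL21 one with IGHMBP2 in the lactate library alone. At MRPL21 that region, chr11:68903702-68903998, had 23 tags and a fold of 6.78 in the lactate library, whereas the strongest region of the untreated library, chr11:68890640-68890864, lay at the gene's other end with 15 tags and a fold of 4.40. Of the members with a head-to-head partner only MRPL27, 45 bp from EME1, was marked in neither library, and MRPS2, with PIERCE1, was marked in the lactate library alone.

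The 7 members marked in the lactate library alone had weak to middling peaks, and for some of them the untreated library had a region within 5 kb of the gene. MRPL36 had 31 tags and a fold of 5.82 at chr5:1799347-1800063, 962 bp from a gene end and so just inside the window. The untreated region it overlapped, chr5:1799702-1800055, had 29 tags and a fold of 4.95 but lay 1317 bp from a gene end and so just outside. At MRPS2, a region at chr9:135500493-135500724 had 24 tags and a fold of 4.27 in the lactate library, and 449 bp away the region chr9:135501173-135501372 had 20 tags and 3.90 in the untreated library. By the gene start alone, both genes were marked in both libraries. MRPL10, which anchors the stalk, had 13 tags (6.92 to 22.2) and a fold of 4.52 in the lactate library. The nearest untreated region lay 9025 bp from that region, at the gene's other end and 1325 bp outside it. In these 3 cases an untreated region lay beyond the window but within 5 kb of a gene end.

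The other 4 had no untreated region within 5 kb of a gene end. MRPS26 had 25 tags (16.2 to 36.9) and a fold of 5.28 in the lactate library. MRPL53 had 16 tags (9.15 to 26.0) and a fold of 4.86 in the lactate library. MRPS6 had 2 regions of 14 tags each, with folds of 4.52 and 4.55, and MRPL13 had 8 tags (3.45 to 15.8) and a fold of 4.50. The nearest untreated region lay 22895 bp from the region of MRPS26, 9298 bp from that of MRPL53, 36313 bp from the nearer region of MRPS6 and 129208 bp from that of MRPL13. Each of the 4 regions also reached another gene, GNRH2 at MRPS26, CCDC142 at MRPL53, SLC5A3 at MRPS6 and MTBP at MRPL13. The lactate list was the longer one, with 50352 regions against 43680 in the untreated list. When both lists were cut to their 21840 regions of highest fold, 41 members were marked in the lactate library (28.8% of all protein-coding genes) and 38 in the untreated library (27.3%). Of the 77 members, 11 were then marked in the lactate library alone (beside 7.29% of all protein-coding genes) and 8 in the untreated library alone (beside 5.78%). The cut removed the weaker regions of both lists, so it cannot tell list length from peak strength.

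At the 54 members marked in both libraries the pileup differed little. Pileups were scaled to 1000000 tags of each library, which held 15120031 tags for lactate and 15696147 for untreated. The scaled value is called the scaled pileup below. Each ratio takes the strongest region of each library. At MRPL2, MRPL14, MRPL21, MRPL46 and MRPS11 these regions did not overlap, so their ratios compare different places. MRPL46 and MRPS11 enter with the same regions. The median log2 ratio of lactate over untreated was 0.31, beside 0.30 for all genes marked in both, and the value was higher in the lactate library at 37 of 54 members (68.5%, beside 76.4% of all such genes). With the median of all genes marked in both subtracted, the members' median log2 ratio was 0.010. The fold enrichment, which carries its own local background, had a median log2 ratio of 0.13, beside 0.14 for all genes. The members' medians were thus close to those of all marked genes. By subunit, 19 of 31 MRPL genes and 18 of 23 MRPS genes had the higher scaled pileup in the lactate library.

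For single members the counting intervals of the libraries overlapped, as they did at nearly all genes marked in both. The exact Poisson 95% intervals of the scaled pileup were apart at 0 of 54 members, beside 1.45% of all genes marked in both. The 0 is close to that share and is no trait of the members. Only MRPS27 lay beyond 2-fold, beside 4.60% of all such genes, with a scaled pileup of 2.45 in the lactate library against 1.21 in the untreated library, a log2 ratio of 1.02. MRPS23 followed with a scaled pileup of 1.26 in the lactate library against 0.637 in the untreated library (log2 ratio 0.98), and MRPS21 with 1.32 against 0.701 in the untreated library (log2 ratio 0.92). At the other end were MRPL32, whose product is matured by the m-AAA protease, with a scaled pileup of 0.926 in the lactate library against 1.34 in the untreated library (log2 ratio -0.53), and MRPL37, with 0.794 against 1.15 in the untreated library (log2 ratio -0.53). MRPS35 had a scaled pileup of 0.860 in the lactate library against 1.15 in the untreated library (log2 ratio -0.42). The 3 members of highest ratio were MRPS genes, and those of lowest ratio were of both subunits.

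**Figure D4:**
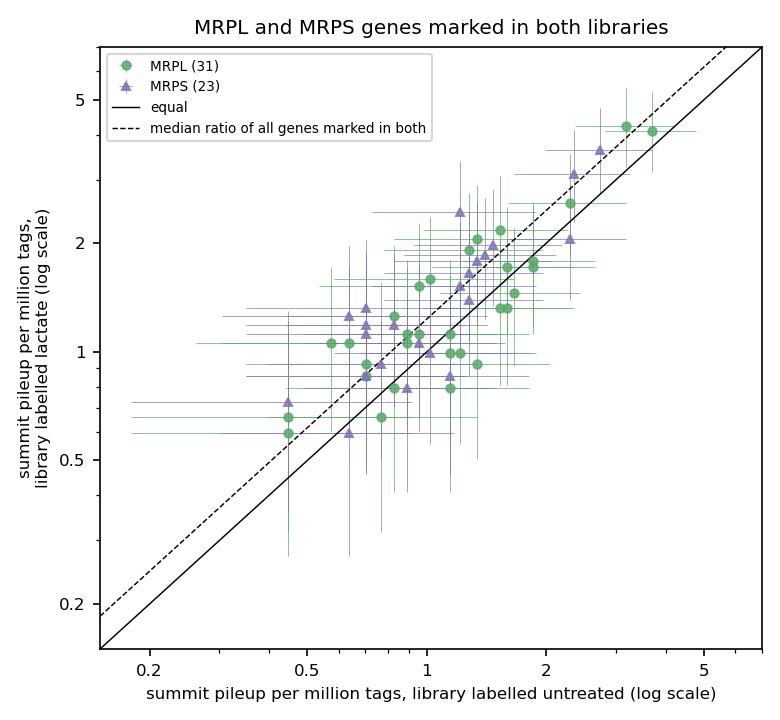
Summit pileup per 1000000 tags of 54 genes marked in both libraries, the library labelled lactate on the vertical and the library labelled untreated on the horizontal axis, both on a log scale, with exact Poisson 95% intervals as bars that cover counting error only. Circles are 31 MRPL and triangles 23 MRPS genes, the solid line marks equal values and the dashed line the median ratio of all genes marked in both, along which the points scatter. Each library's strongest region was used, also where these regions did not overlap.

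The promoters of 8 members are shown, with and without a peak. They are RefSeq windows of GRCh38.p14 (hg38), each from 250 bases before to 50 bases after the gene start and read in the direction of the gene. The first 4 are the members of highest mean fold among those whose regions in both libraries overlap the window: MRPS17 (chr7:55951627-55951926, plus strand), MRPL16 (chr11:59810729-59811028, minus strand), MRPS9 (chr2:105037819-105038118, plus strand) and MRPL11 (chr11:66438799-66439098, minus strand). MRPL36 (chr5:1799788-1800087, minus strand) and MRPL53 (chr2:74472631-74472930, minus strand) were marked in the lactate library alone by their gene ends, although at MRPL36 an untreated region also overlaps the window, and MRPL12 (chr17:81703117-81703416, plus strand) and MRPL20 (chr1:1407244-1407543, minus strand) in neither. Capitals mark matches, on either strand, to the motifs CCGGAAG (ETS factors such as GABP), GCGCA-any base-GCGC (NRF1), AAGATGGC (YY1), GGGCGG (SP1) and CCAAT (NF-Y). GABP and NRF1 are known as activators of nuclear genes for mitochondrial proteins, YY1 as a factor of many promoters with a motif close to the start, and SP1 and NF-Y as factors of promoters at large.
MRPS17: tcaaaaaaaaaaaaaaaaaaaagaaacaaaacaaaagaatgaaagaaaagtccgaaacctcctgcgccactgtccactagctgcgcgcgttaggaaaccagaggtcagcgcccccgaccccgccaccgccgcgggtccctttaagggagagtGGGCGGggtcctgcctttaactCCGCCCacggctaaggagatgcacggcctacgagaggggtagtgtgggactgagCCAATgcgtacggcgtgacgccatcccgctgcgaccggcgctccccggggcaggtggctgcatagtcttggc
MRPL16: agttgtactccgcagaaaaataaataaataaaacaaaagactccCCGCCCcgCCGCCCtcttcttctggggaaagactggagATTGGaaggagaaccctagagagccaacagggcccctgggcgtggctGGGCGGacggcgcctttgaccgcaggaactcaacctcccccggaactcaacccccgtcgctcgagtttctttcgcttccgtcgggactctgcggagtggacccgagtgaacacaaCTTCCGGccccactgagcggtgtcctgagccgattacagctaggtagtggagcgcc
MRPS9: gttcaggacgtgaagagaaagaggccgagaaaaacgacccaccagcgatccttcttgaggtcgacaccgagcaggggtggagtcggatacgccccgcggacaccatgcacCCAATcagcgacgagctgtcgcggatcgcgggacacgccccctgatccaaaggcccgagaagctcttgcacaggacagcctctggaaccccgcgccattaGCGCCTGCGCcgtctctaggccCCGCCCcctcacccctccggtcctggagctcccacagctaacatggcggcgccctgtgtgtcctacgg
MRPL11: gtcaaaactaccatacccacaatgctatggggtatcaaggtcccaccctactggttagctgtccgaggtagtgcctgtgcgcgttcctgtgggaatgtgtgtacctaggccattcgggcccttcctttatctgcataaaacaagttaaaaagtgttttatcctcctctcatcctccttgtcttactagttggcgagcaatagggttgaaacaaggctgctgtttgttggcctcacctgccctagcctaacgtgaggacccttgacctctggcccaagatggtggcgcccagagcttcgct
MRPL36: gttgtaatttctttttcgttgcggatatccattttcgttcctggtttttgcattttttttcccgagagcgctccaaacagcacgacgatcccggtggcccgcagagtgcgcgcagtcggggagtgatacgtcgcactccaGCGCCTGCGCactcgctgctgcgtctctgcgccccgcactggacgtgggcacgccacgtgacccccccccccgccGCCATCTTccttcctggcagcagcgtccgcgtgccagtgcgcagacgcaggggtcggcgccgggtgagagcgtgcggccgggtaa
MRPL53: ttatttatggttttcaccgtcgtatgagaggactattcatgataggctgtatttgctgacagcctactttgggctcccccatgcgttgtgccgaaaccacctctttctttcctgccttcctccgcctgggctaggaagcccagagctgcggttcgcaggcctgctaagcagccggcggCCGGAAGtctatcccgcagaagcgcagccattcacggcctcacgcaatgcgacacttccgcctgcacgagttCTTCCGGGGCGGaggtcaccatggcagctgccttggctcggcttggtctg
MRPL12: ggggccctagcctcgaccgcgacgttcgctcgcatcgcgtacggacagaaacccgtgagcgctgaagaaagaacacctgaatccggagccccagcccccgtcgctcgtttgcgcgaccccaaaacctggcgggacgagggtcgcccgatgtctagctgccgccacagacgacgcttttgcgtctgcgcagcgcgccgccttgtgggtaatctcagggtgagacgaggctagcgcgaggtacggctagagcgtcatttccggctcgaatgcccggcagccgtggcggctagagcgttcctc
MRPL20: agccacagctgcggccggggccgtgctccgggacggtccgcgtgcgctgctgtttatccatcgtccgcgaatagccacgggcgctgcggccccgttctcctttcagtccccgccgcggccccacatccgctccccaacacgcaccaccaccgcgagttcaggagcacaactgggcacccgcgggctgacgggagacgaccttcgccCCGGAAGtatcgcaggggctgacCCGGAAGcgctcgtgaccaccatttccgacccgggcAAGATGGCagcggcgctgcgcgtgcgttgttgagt
Exact motif matches did not follow peak height among these 8, which were picked partly by peak strength. MRPS17 holds 2 SP1 matches and 1 NF-Y match, MRPL16 holds 1 ETS, 3 SP1 and 1 NF-Y match, and MRPS9 holds 1 match each for NRF1, SP1 and NF-Y. MRPL11, with the tallest peak in the lactate library, holds none of the 5 motifs, nor does MRPL12, which had no peak. MRPL20, also without a peak, holds 2 ETS matches and 1 YY1 match. MRPL36 holds 1 NRF1 and 1 YY1 match, and MRPL53 holds 2 ETS matches and 1 SP1 match that overlaps an ETS match. A match is a run of letters and not a bound site. Only the exact letters were searched, so variants of a motif were not counted.

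Over the 69 members with a promoter entry, 2 motifs were more frequent than in promoters at large. The ETS motif was found in 29 promoters (42.0%), beside 14.2% of 15843 protein-coding promoters of the same length. The YY1 motif was found in 20 (29.0%), beside 3.91%. Marked genes at large hold these motifs more often too, and among genes marked in both libraries the ETS motif was found in 40.0% of 50 members and 20.8% of 6709 genes, and the YY1 motif in 32.0% of the members and 5.90% of the genes. The other motifs were near the level of all promoters: NRF1 in 8 members (11.6%, beside 8.58%), SP1 in 42 (60.9%, beside 58.5%) and NF-Y in 20 (29.0%, beside 36.4%). The shares were close in the subunits, with the ETS motif in 40.5% of MRPL and 44.4% of MRPS promoters, and the YY1 motif in 28.6% of MRPL and 29.6% of MRPS promoters.

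The YY1 matches lay close to the start. Of 21 matches in the members, 16 lay within 50 bp of the start (76.2%, beside 68.0% of the matches in all promoters), with a median 9 bp after it. Of 39 ETS matches, 27 lay within 50 bp (69.2%, beside 53.7%), with a median at -22 bp. Members with an ETS match were not marked more often than members without one, whereas genes at large with a match were. Members with an ETS match had a region at the start in 22 of 29 cases (75.9%) in the lactate library and 20 of 29 (69.0%) in the untreated library, and members without one in 35 of 40 (87.5%) in the lactate library and 34 of 40 (85.0%) in the untreated library. Among all promoters 72.7% with an ETS match and 45.5% without had one in the lactate library, and 64.9% with and 40.0% without in the untreated library. Members with a YY1 match had a region at the start in 17 of 20 cases (85.0%) in each library, and members without one in 40 of 49 (81.6%) in the lactate library and 37 of 49 (75.5%) in the untreated library. Of the 12 members with no region at the start in either library, 7 held an ETS match and 3 a YY1 match. Of the 54 members with one in both, 20 held an ETS match and 17 a YY1 match. Of 7498 promoters at large with no region there in either library, 530 held an ETS match (7.07%) and 150 a YY1 match. Of 6379 with one in both, 1378 held an ETS match (21.6%) and 387 a YY1 match (6.07%). The groups of members are small, and a link between motif and mark in them was not tested.

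**Figure D5:**
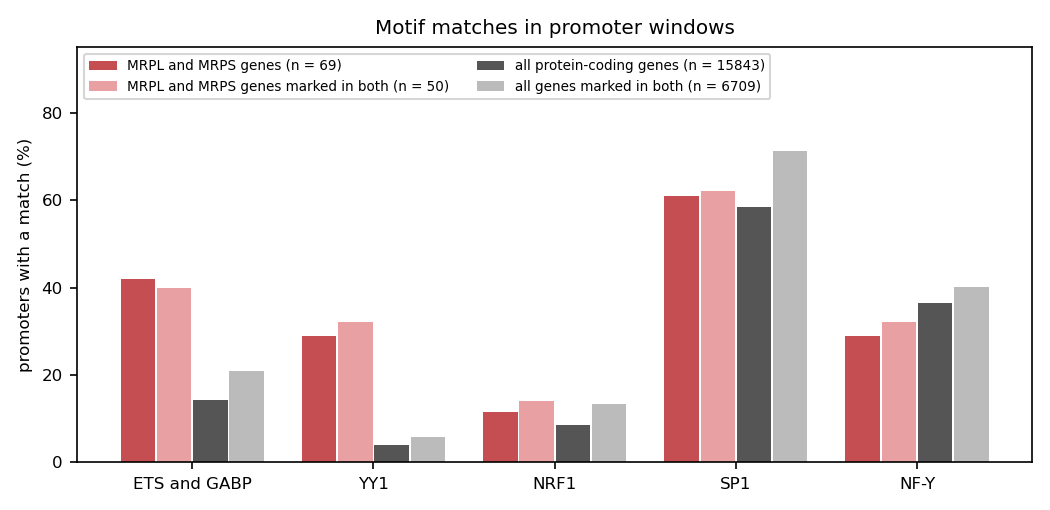
Share of promoter windows of 300 bases with a match to each motif on either strand (%, vertical axis), for 69 MRPL and MRPS genes, the 50 of them marked in both libraries, 15843 protein-coding genes, and the 6709 of these marked in both. The bars of the MRPL and MRPS genes are higher than those of all genes for ETS and YY1, and lower for NF-Y.

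Base composition was compared as well, since CpG-rich promoters were marked more often at large. By marks at the start, the ratio of observed to expected CpG, a measure of a CpG island, had a median of 0.858 over 54 members marked in both and 0.970 over 12 marked in neither. Among all protein-coding genes with a promoter entry it was 0.852 over 6379 marked in both and 0.472 over 7498 marked in neither. The GC content had a median of 59.2% in members marked in both and 64.3% in members marked in neither, and among all genes 65.0% in those marked in both and 58.0% in those marked in neither. The medians of the 12 unmarked members were thus above those of the marked members, and those of unmarked genes at large below those of marked genes.

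Other genes of mitochondrial translation were also marked in larger shares than all protein-coding genes, and whether they differ from the members was not tested. Of 6 proteins of the mitochondrial ribosome with other symbols, 5 (83.3%) were marked in the lactate library and 4 (66.7%) in the untreated library. Among them DAP3, the GTP-binding protein of the small subunit, had a fold of 6.45 in the lactate library and 6.45 in the untreated library, CHCHD1 was marked in the lactate library alone with 4.92, and GADD45GIP1 in neither. Of 27 factors that assemble the ribosome, 25 (92.6%) were marked in the lactate library and 22 (81.5%) in the untreated library, beside 79.2% of the members in the lactate library and 70.1% in the untreated library. TFB1M, which methylates the small subunit's RNA, had a fold of 7.46 in the lactate library and 10.8 in the untreated library. METTL15, another methyltransferase of that RNA, had 9.70 in the lactate library and 5.70 in the untreated library. DHX30, MTG2 and RCC1L were marked in the lactate library alone, with folds of 4.47, 4.61 and 5.96, and GRSF1 and MRM1 in neither.

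Of 19 translation factors and related genes, 15 (78.9%) were marked in the lactate library and 13 (68.4%) in the untreated library. The initiation factor MTIF3 had a fold of 10.2 in the lactate library and 7.53 in the untreated library, and the elongation factor GUF1 10.0 in the lactate library and 10.7 in the untreated library. GTPBP3 and TSFM were marked in the lactate library alone with folds of 3.16 and 6.52, and MTFMT, MTO1, SLIRP and TRMU in neither. Of 22 genes for mitochondrial aminoacyl-tRNA synthesis, 20 (90.9%) were marked in the lactate library and 18 (81.8%) in the untreated library. WARS2, the tryptophanyl-tRNA synthetase, had a fold of 12.0 in the lactate library and 12.6 in the untreated library. GATB and GATC were marked in the lactate library alone with 7.09 and 6.45. They encode subunits of the enzyme that converts glutamate to glutamine on its tRNA rather than a synthetase. AARS2 and FARS2 were marked in neither.

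The ribosomal proteins of the cytosol gave similar shares. Of 83 genes named RPL or RPS and a number, 66 (79.5%) were marked in the lactate library and 66 (79.5%) in the untreated library. Of the 83, 60 were marked in both (72.3%, beside 39.8% of all protein-coding genes) and 11 in neither (13.3%, beside 46.8%). In each library alone 6 were marked (7.23%). Among all protein-coding genes, 9.70% were marked in the lactate library alone and 3.74% in the untreated library alone. Whether these sets differ was not tested. The median fold of marked cytosolic genes was 5.85 in the lactate library and 5.18 in the untreated library. Pseudogenes that carry an MRPL or MRPS symbol were marked in 4 of 106 cases (3.77%) in the lactate library and in 6 of 106 (5.66%) in the untreated library, beside 5.97% of all pseudogenes in the lactate library and 5.39% in the untreated library. The copies were thus below that level in the lactate library and slightly above it in the untreated library.

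The label of the cells was checked at marker genes, which a mark of chromatin bears on only loosely. Of 12 genes of squamous epithelium, 8 had a region at an end in the lactate library and 7 in the untreated library. Among all protein-coding genes 49.5% had one in the lactate library and 43.5% in the untreated library. TP63, DSG3, ITGB4 and KRT14 had none at an end in either, and counting regions inside genes the numbers were 11 in the lactate library and 10 in the untreated library. At their ends, 3 of 6 fibroblast markers were marked in the lactate library and 2 in the untreated library, 2 of 6 blood cell markers in each, and of 5 endothelial markers 0 in the lactate library and 2 in the untreated library. With regions inside genes it was 3 fibroblast, 3 blood cell and 4 endothelial markers in each library. The share of all genes with a region at an end or inside was not computed, so these counts do not tell cell types apart. The part of other cell types in the members' marks was not tested. No library without the antibody was used here, so cuts in open chromatin without the mark could not be subtracted.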

How the data were processed

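CUT&Tag was carried out in 2 libraries, 1 per group. Per the labels' protocols, thawed cells were held on concanavalin A beads, opened with digitonin and cut by pA-Tn5 where the antibody sat. Per the submitters' processing notes, reads went through fastp 0.20.0, BWA (build hg38) and MACS2 2.1.0. Per the file headers, MACS 2.1.0.20150420 called peaks in each library separately with no control, at a q threshold of 0.05, a shift of -100 bp and an extension of 200 bp, which centres each tag on its cut. The sources used here state no spike-in scaling. The authors' deposited lists give 2 values per summit: the pileup, a signal counted in tags without scaling, and the fold enrichment, a ratio to local background. Both together give back the background, from which the Poisson upper tail gave -log10 p.

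Summits of the same start and end were joined to 50352 regions in the lactate library and 43680 in the untreated library, and the summit of highest fold stood for its region. Genes came from the RefSeq table of GRCh38.p14, which has no strand. Strand and start came from the RefSeq promoter windows, found for 69 of 77 members. The entries for MRPL2, MRPL10, MRPL13, MRPL15, MRPL21, MRPL23, MRPL35 and MRPS28 were not used here. Overlap meant at least 1 bp. The members, lists, motifs and alternatives were chosen with earlier results of these data known. Named with values were members marked in 1 library alone or in neither, the 6 of highest and 4 of lowest fold in each library, up to 8 sharing a region, and the 3 largest and 3 smallest pileup ratios. Roles given for other genes are textbook background.

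Depth was 15120031 tags in the lactate library and 15696147 in the untreated library, and tags are not independent molecules. No test was run, since each group had 1 library. The alternatives changed the window, the start rule, the strength limit, the list length and the scaling. The overlap code was tested on simulated data: of 200 planted regions that touched a window by 1 bp, among 20037 genes, 200 were recovered. The software was Python 3.11.15 with numpy 2.4.6, pandas 2.3.3, matplotlib 3.10.9 and SciPy 1.17.1.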

Additional observations from a re-analysis of the deposited data

Results flagged for a closer look

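The ribosomal RNA genes of mitochondrial DNA, which lie outside the nuclear genes described above, carried peaks of very high pileup and low fold. No control library was used here, so the values are set against a floor of 3 counts. RNR1, the RNA of the small subunit, had a pileup of 7716 tags at its summit of highest fold (exact Poisson 95% interval 7545 to 7890, fold 2.39) in the library labelled lactate and of 4629 tags (4497 to 4764, fold 2.55) in the library labelled untreated. RNR2, the RNA of the large subunit, had 5726 tags (fold 1.52) in the library labelled lactate and 3482 tags (fold 1.47) in the library labelled untreated. These folds were below the lowest of a marked member, 3.61 in the lactate library and 3.25 in the untreated library. The local background that these pileups and folds imply is itself far above the floor, so passing the floor says nothing about the peaks. It does not tell cuts at the antibody's target from other cuts. The tags are not scaled, the intervals cover counting error only, and the difference between the libraries was not tested.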

How the results depend on the processing

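Of 72 values recomputed under another setting, 16 moved. Only the subunit differences and the log2 ratios could change sign, and none of them did. A count was taken as moved beyond 1.5 times its value, and a subunit difference or a median outside its own 95% interval. The interval of the untreated subunit difference is wide, so values of -3.57 to -20.9 points, reported as -18.9, lay inside it. Members marked in the lactate library alone, 7 as reported, were 3 by the gene start alone, 17 at a fold of at least 5, 18 at -log10 p of 7 or more, recomputed, 11 in lists of 21840 regions each, and 4 when no untreated region was allowed within 5 kb. Members marked in the untreated library alone, 0 as reported, were 1 with a window of 5 kb, 7 at a fold of at least 5, 3 at a -log10 p of at least 7 and 8 in lists of equal length. Members marked in the untreated library were 34 at a fold of at least 5, against 54. Members sharing a region were 19 at a fold of at least 5 and 19 in lists of equal length in the lactate library, against 30, and 37 with a window of 5 kb and 14 at a fold of at least 5 in the untreated library, against 22. The median log2 pileup ratio, 0.31, was 0.010 with the median of all genes subtracted and 0.13 as a ratio of folds. Shorter lists hold fewer marked genes by construction. No paired analysis was possible because each group had 1 library, and for the same reason no replicate could be left out. Depth limits single genes most: the lowest members' pileups were 8 tags in the lactate library and 7 in the untreated library.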
